A study of Pleurotus ostreatus with 4 samples.

Results

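A set of 124 sequences of the oyster mushroom Pleurotus ostreatus was abundant in vegetative mycelium, low in the primordium and abundant again in the mature fruit body. They were taken from 51131 sequences in the deposited table by their FPKM (fragments on a sequence, relative to its length and to the total of the library). Members had at least 5 FPKM in both mycelium and mature fruit body. On the scale of log2(FPKM + 1), which adds a pseudocount of 1, both stages were at least 1 above primordium, about 2-fold. The mycelium value was also required to lie less than 4 above the highest of the fruiting stages on that scale. The members were thus selected on the measured FPKM of mycelium, primordium and mature fruit body, and the dip and the return are given as a description. The young fruit body entered the choice through the upper limit alone.

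RNA sequencing covered vegetative mycelium, the primordium, and the young and the mature fruit body of the wild type strain P739, with 1 library for each of the 4 stages. No stage had a replicate, so differences have no replicate check, and no test or p-value is given. How many cultures or mushrooms were pooled, and which tissue of the mushroom was taken, is not stated in the labels. In these libraries, fewer cells of a type, less RNA per cell and a difference in the tissue taken cannot be told apart.

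In a white-rot fungus such as this one, the mycelium is the feeding phase, a network of hyphae that secretes enzymes into wood or straw and takes up the products. The primordium is the first compact knot of hyphae from which a mushroom forms. The young fruit body expands stipe and cap. In the mature fruit body the gills bear basidia, the cells in which meiosis takes place and on which spores form. The identifiers in the table carry no gene names, positions or descriptions, and of the 51131 identifiers 0 were found among the 11849 genes that RefSeq lists for strain PC9. The function of none of the members is therefore stated, no marker of a tissue could be looked up, and members are given by identifier, length and values.

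Whole fragment numbers behind the FPKM were recovered from the spacing of the values, and gave the sequence lengths too. The library totals were 15541785 fragments in mycelium and 15048628 in primordium, then 15400577 in the young and 15691316 in the mature fruit body. Per 1000 nt of sequence, 1 fragment corresponded to 0.0637 to 0.0665 FPKM. The fewest fragments of any member were 41 in mycelium, 5 in primordium, 7 in the young and 31 in the mature fruit body, and the medians were 575, 89, 165.5 and 338.5. Intervals given with ratios are exact 95% intervals that cover counting error only.

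Together the members accounted for 1.62% of all fragments in mycelium, 0.276% in primordium, 0.556% in the young and 1.12% in the mature fruit body. Median FPKM was 25.5 in mycelium, 4.08 in primordium, 7.26 in the young and 15.0 in the mature fruit body. The full range was 5.36 to 793 FPKM in mycelium, 0.172 to 310 in primordium, 0.539 to 470 in young fruit body and 5.04 to 775 in mature fruit body. In primordium 75 of the 124 lay under 5 FPKM and 8 under 1 FPKM, while 12 remained at 20 FPKM or more. The set therefore held both sequences that were nearly undetected in primordium and abundant sequences that kept a substantial level there. Over all sequences in the table the medians were 0.4, 0.327, 0.361 and 0.375 FPKM in the same order of stages.

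Members made up 2.32% of the 5354 sequences with at least 5 FPKM in both mycelium and mature fruit body. A sequence was called higher in a stage where log2(FPKM + 1) was at least 1 above the other stage and its FPKM there was at least 5. By this measure mycelium exceeded primordium in 124 of 124 members, as the rule requires, and in 24.6% of the 8134 sequences with enough FPKM in either library. Mature fruit body exceeded primordium in all 124, again by the rule, against a background of 8.39% of 7119. The members were 6.18% of the 2005 sequences that were lower in primordium than in mycelium. They were 20.8% of the 597 that were higher in mature fruit body than in primordium. Both comparisons use the same primordium library.

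**Figure D1:**
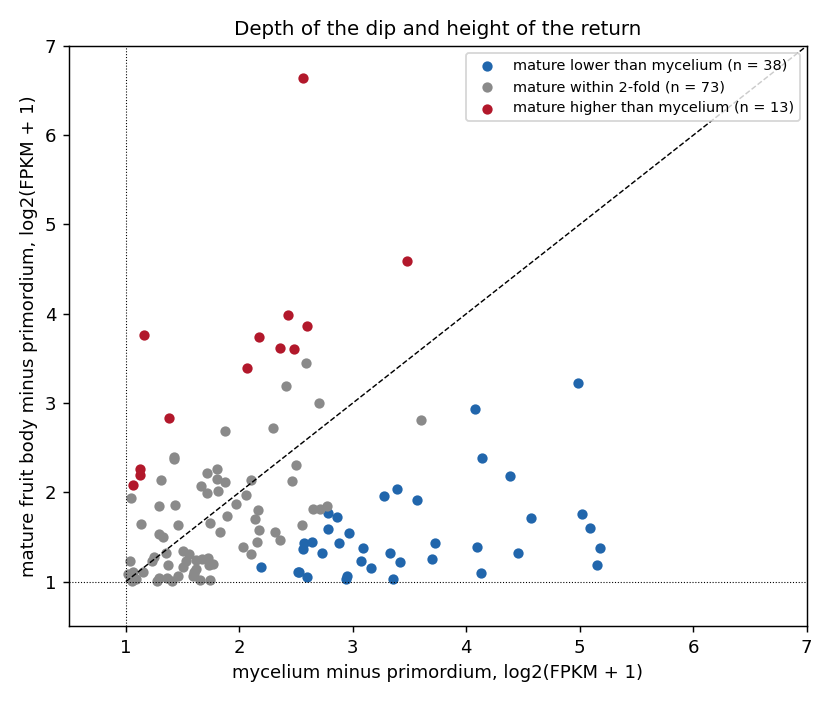
Each point is 1 of the 124 members, with mycelium minus primordium on the x axis and mature fruit body minus primordium on the y axis, both as differences of log2(FPKM + 1). Dotted lines mark the rule's minimum of 1 and the dashed line equal differences; 13 members were called higher (red) and 38 lower (blue) in mature fruit body than in mycelium, with 73 (grey) called in neither direction.

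The dip had a median depth of 2.12 on the log2 scale against mycelium, with quartiles of 1.5 and 2.78 and an extreme of 5.18. The return from primordium to mature fruit body had a median of 1.56, quartiles of 1.22 and 2.12 and an extreme of 6.64. As plain ratios of FPKM the medians were 5.51 for mycelium over primordium and 3.44 for mature fruit body over primordium. At least 2 on the log2 scale was reached in both directions by 21 members. The 95% interval of the ratio lay above 1 in both directions for 124 members and above 2 in both for 95.

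Values just inside and just outside the limits of the rule were as follows. CL683.Contig4 and CL934.Contig3 were just inside the mycelium minimum at 5.356 and 5.359 FPKM, and CL5088.Contig2 and CL3131.Contig3 just outside at 4.811 and 4.697. For mature fruit body, CL4234.Contig2 and Unigene4458 were inside at 5.038 and 5.130 FPKM, and Unigene1460 and CL3144.Contig3 outside at 4.979 and 4.790. The log2 difference of mycelium to primordium was 1.02 and 1.038 for CL1454.Contig3 and CL3343.Contig5, and 0.994 and 0.946 for the excluded Unigene7332 and CL4292.Contig2. That of mature fruit body to primordium was 1.002 and 1.011 for CL835.Contig22 and CL3317.Contig2, and 0.995 and 0.986 for the excluded CL2116.Contig2 and CL5691.Contig2. The upper limit of 4 was approached by CL3091.Contig2 and CL39.Contig3 at 3.887 and 3.803, and passed by Unigene6760 and Unigene4064 at 4.249 and 5.404. At the upper limit the excluded values were thus farther apart than at the minimum log2 differences.

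The deepest dips, ranked by the smaller of the differences to primordium, belonged to 8 sequences, among them some below the median FPKM of the set in mycelium. Unigene441 (1828 nt) had 43.8 FPKM in mycelium, 3.02 in primordium, 6.39 in the young and 95.6 in the mature fruit body. Its primordium value rested on 83 fragments, and mature fruit body exceeded primordium 31.7-fold (25.5 to 39.9). The young fruit body was 2.12-fold above primordium (1.63 to 2.78), and the last step carried most of the return, 14.9-fold (12.8 to 17.5).

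CL4770.Contig2 (882 nt) stood at 92.6 FPKM in mycelium, 1.96 in primordium, 5.45 in the young and 26.7 in the mature fruit body. Here mycelium was the highest library, 47.3-fold above primordium (32.1 to 72.7), and mature fruit body reached 0.288 of the mycelium level (0.256 to 0.323). CL5175.Contig1 (1876 nt) was listed at 26.0, 0.602, 0.934 and 11.2 FPKM in order of stage. Its sister CL5175.Contig2 (1927 nt) had 13.3, 0.172, 0.539 and 7.21 FPKM, the lowest primordium value of any member, from 5 fragments. For both contigs primordium and young fruit body were low together and mycelium was the highest stage. Because of those 5 fragments the mycelium to primordium ratio of CL5175.Contig2, 76.9-fold, had an interval from 32.7 to 238.

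CL2674.Contig2 (1691 nt) had 21.1, 2.67, 7.22 and 39.2 FPKM, and CL2596.Contig4 (3129 nt) had 17.0, 1.76, 3.92 and 21.2 FPKM. In both, mature fruit body was above mycelium, 1.86-fold (1.67 to 2.06) and 1.24-fold (1.13 to 1.36). Unigene4015 (603 nt) joined a deep dip with high abundance, at 177 FPKM in mycelium, 28.4 in primordium, 210 in the young and 429 in the mature fruit body. It had already passed the mycelium level in the young fruit body, by 1.18-fold (1.11 to 1.26).

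Unigene5436 (2432 nt) stood apart from the other members on the mature side. It had 38.7 FPKM in mycelium, 5.71 in primordium, 32.1 in the young and 670 in the mature fruit body. The return from primordium was 117-fold (102 to 135), and 20.8-fold (19.7 to 22.1) of it fell in the last step. Mature fruit body was 17.3-fold above mycelium (16.4 to 18.3), the largest such ratio among the members. In the young fruit body it had come back to 0.831 of the mycelium level (0.769 to 0.898) before this last step.

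**Figure D2:**
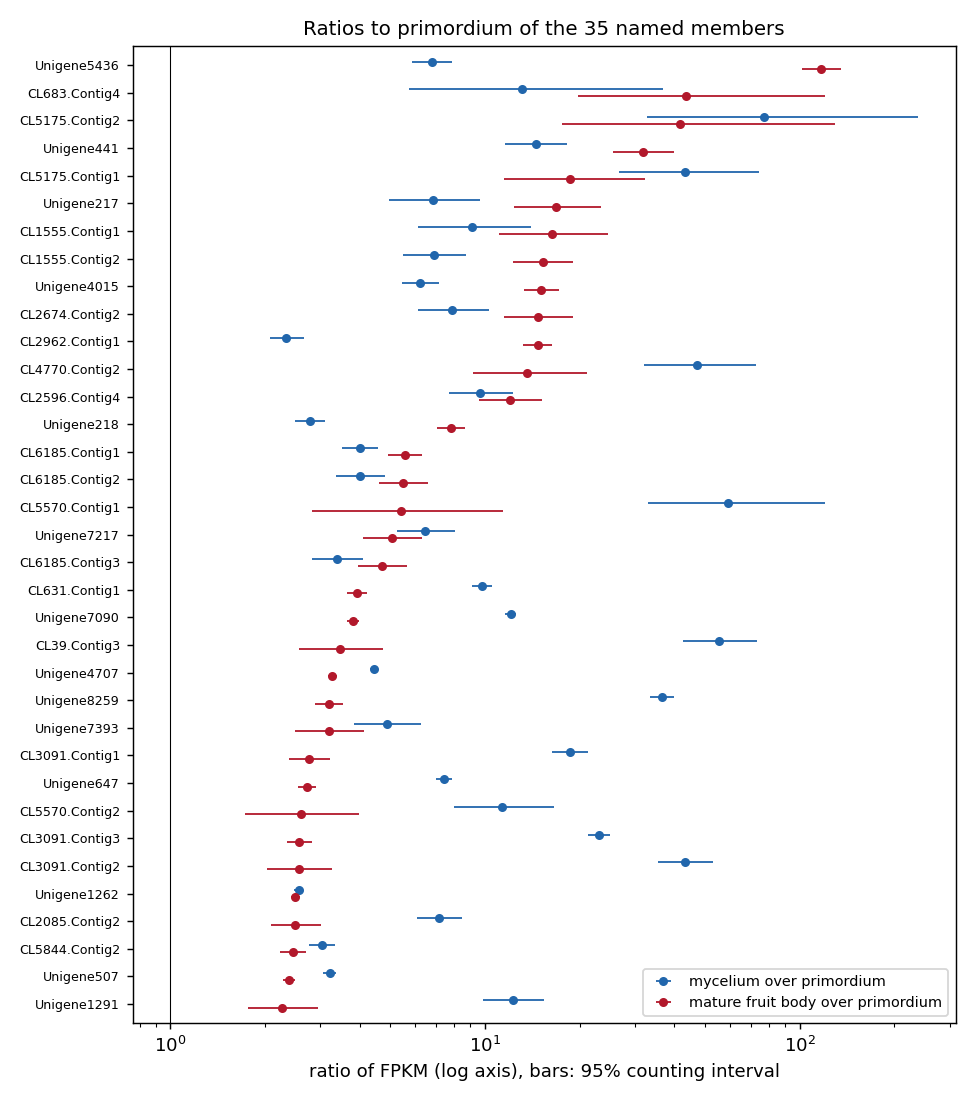
Ratios of FPKM (log axis) of mycelium over primordium (blue) and mature fruit body over primordium (red) for 35 members chosen by level, depth, timing or shared cluster, ordered by the red ratio, with bars for the 95% counting interval. Unigene5436 is at the top with 117-fold for mature fruit body and 6.77-fold for mycelium; CL39.Contig3, with 55.4-fold for mycelium, reached 3.47-fold for mature fruit body.

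The members of highest FPKM differed widely in depth, from 2.56-fold to 36.6-fold between mycelium and primordium. Unigene1262 (1248 nt) led with 793 FPKM in mycelium, 310 in primordium, 470 in the young and 775 in the mature fruit body. Its mature level was 0.977 of the mycelium level (0.955 to 0.999), so the start and the end of the series nearly met. Unigene507 (1110 nt) followed the same course at 472, 147, 188 and 352 FPKM.

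Unigene647 (983 nt) had 642, 86.6, 213 and 235 FPKM, and CL631.Contig1 (896 nt) had 638, 65.2, 184 and 256 FPKM. Both had made most of their return by the young fruit body and stayed below mycelium, at 0.366 (0.352 to 0.380) and 0.401 (0.386 to 0.417) of its level. Unigene4707 (3521 nt), at 467, 105, 351 and 345 FPKM, was as high in the young as in the mature fruit body, with a ratio of mature to young of 0.985 (0.965 to 1.01). Without Unigene1262, Unigene5436 and Unigene647, the members of highest FPKM, the rest made up 1.45% of all fragments in mycelium, 0.227% in primordium, 0.467% in the young and 0.837% in the mature fruit body.

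Unigene7090 (3497 nt) differed from these in its low point. It had 601 FPKM in mycelium, 49.7 in primordium, 29.3 in the young and 190 in the mature fruit body. The young fruit body was at 0.589 of the primordium level (0.553 to 0.628), and mature fruit body stood 6.49-fold above young (6.15 to 6.84). Unigene8259 (2550 nt), with 480, 13.1, 39.1 and 42.0 FPKM, had the largest ratio of mycelium to primordium among the 8 members of highest FPKM, 36.6-fold (33.5 to 40.0), and returned to 0.0874 of its mycelium level (0.0831 to 0.0919).

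The young fruit body, which the rule hardly used, lay between primordium and mature fruit body in FPKM for 108 of the 124 members. Primordium was the lowest of the 4 libraries for 116 members and young fruit body for 8. The median difference of young fruit body to primordium was 0.74 on the log2 scale, with quartiles of 0.38 and 1.13, against 0.02 over the 6820 sequences with enough FPKM. From young to mature fruit body the median was 0.93, with quartiles of 0.53 and 1.37, against -0.03 over 7055 sequences. These differences share the primordium or the mature library with the rule. As a share of the whole log2 return, the part present in the young fruit body had a median of 40.8% and quartiles of 23.1% and 62.1%.

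Young fruit body was called higher than primordium in 34 of the 124 members, 27.4%, where the background was 2.83% of the 6820 sequences with enough FPKM. Of the members, 87 had at least 5 FPKM in either library, and 34 were 39.1% of those. Mature fruit body was called higher than young in 54 members, 43.5%, against 5.22% of 7055. Both calls reuse a library on which the members were selected, so an excess over the background follows partly from that choice. In the opposite directions 0 members were called in either step, against 1.58% and 2.04%. However, 75 of the members were under 5 FPKM in primordium and 37 in the young fruit body, and could not be called higher there. By counting error, the ratio of young fruit body to primordium had an interval above 1 in 92 members, below 1 in 3 and around 1 in 29.

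Joined over both steps, 44 members were called from young to mature fruit body, 24 from primordium to young fruit body, 10 in both steps and 46 in neither. For the 44 late members the stage medians were 20.8, 3.22, 5.22 and 15.1 FPKM. A young value low against mature fruit body follows from how this group was defined. The group also holds members that rose by the young fruit body but stayed under 5 FPKM, such as CL683.Contig4 at 6.84-fold (2.89 to 19.7). The 24 early members had stage medians of 33.6, 4.88, 17.7 and 21.5 FPKM, and the part of the log2 return present in the young fruit body had a median of 92.1% (range 52.7% to 133%). A high share likewise follows from how this early group was defined. In the 10 members called in both steps the medians were 38.5, 3.46, 9.54 and 32.9 FPKM. The 46 members called in neither step had stage medians of 24.6, 4.74, 7.36 and 11.9 FPKM and passed 2-fold when both steps were joined. A few of them rose by more than 1 on the log2 scale in the first step but stayed under 5 FPKM. Examples were CL1840.Contig4 at 1.418 and CL934.Contig3 at 1.197, with 4.2 and 2.97 FPKM in the young fruit body. These groups were formed after the values were seen.

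**Figure D3:**
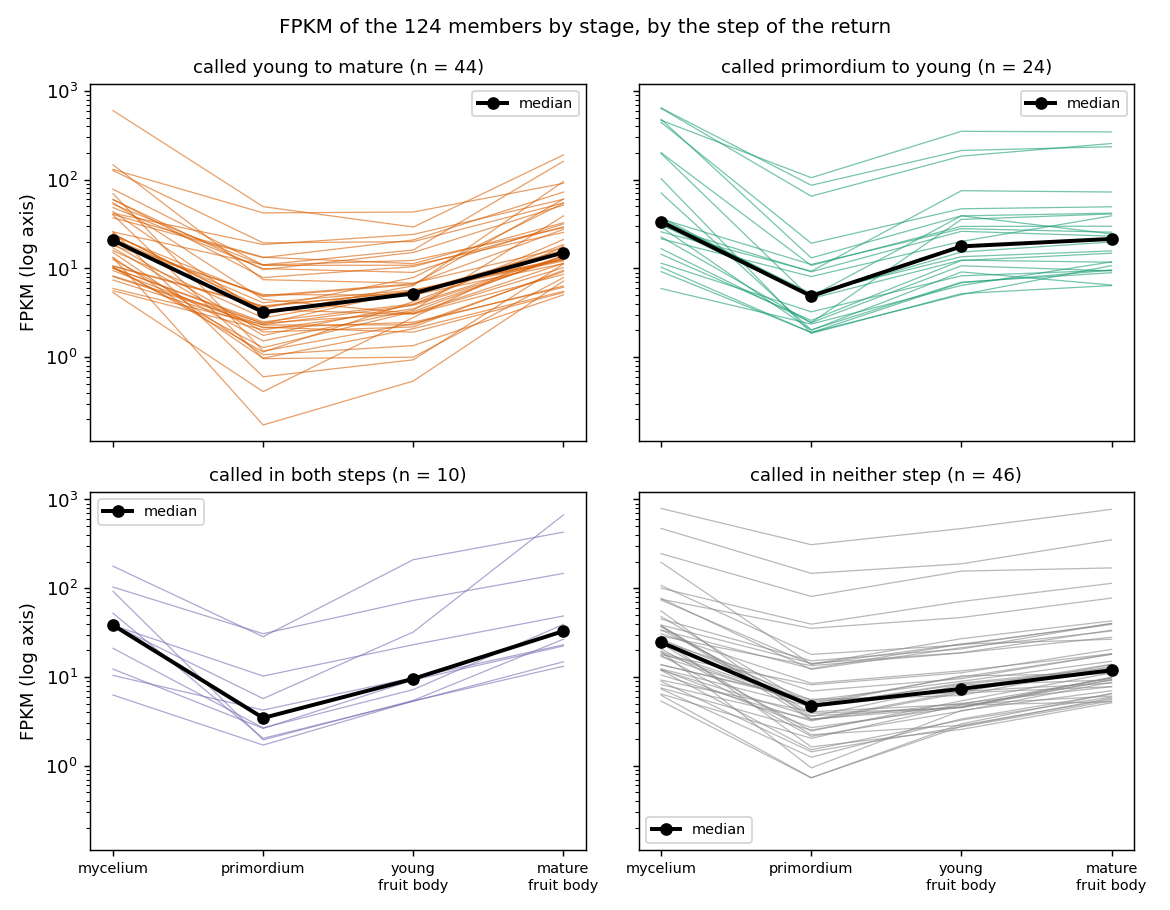
FPKM (log axis) of each member at the 4 stages, in 4 panels by the step in which the return was called, with the group median in black. The panels were defined by these same values, so their contrast in young fruit body is by construction. In the panel of 44 the lines stay low in young fruit body (median 5.22 FPKM) and reach a median of 15.1 in mature fruit body; in the panel of 24 they are already at a median of 17.7 in young fruit body and end at 21.5.

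On the scale of log2(FPKM + 1), the early return was largest in 5 unigenes. Unigene217 (1167 nt) had 16.7 FPKM in mycelium, 2.45 in primordium, 35.7 in the young and 41.2 in the mature fruit body, a ratio of young fruit body to primordium of 14.6 (10.7 to 20.4). Unigene218 (3089 nt) had 25.8, 9.31, 75.2 and 72.7 FPKM, with a ratio of 8.07 (7.30 to 8.94). In both, young fruit body was above mycelium, 2.14-fold (1.86 to 2.46) and 2.91-fold (2.73 to 3.11), and the mature level was close to the young one.

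Unigene7217 (1402 nt) had 31.2, 4.83, 39.2 and 24.5 FPKM, and was highest in the young fruit body, 8.11-fold above primordium (6.60 to 10.1). Mature fruit body was at 0.625 of its young level (0.560 to 0.697). Unigene4015 and Unigene5436, described above, were the others of this group, at 7.38-fold (6.48 to 8.43) and 5.63-fold (4.86 to 6.55). Over the whole set, young fruit body was the highest library for 2 members, mycelium for 83 and mature fruit body for 39.

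At the other end, the following 5 members had the lowest values of young fruit body minus primordium on the same log2 scale. Besides Unigene7090, they included Unigene1291 (1317 nt) with 55.1, 4.49, 3.11 and 10.2 FPKM and CL5844.Contig2 (2966 nt) with 40.6, 13.4, 11.3 and 32.7 FPKM. Their ratios of young fruit body to primordium were 0.692 (0.493 to 0.966) and 0.848 (0.752 to 0.955), both with intervals below 1. The mature to primordium difference of Unigene1291 was 0.94 and 0.98 on the log2 scale under other scalings, below the minimum of the rule. CL2085.Contig2 (3254 nt), at 24.5, 3.43, 3.05 and 8.58 FPKM, had a ratio of 0.890 with an interval from 0.710 to 1.11. Unigene7393 (554 nt), at 48.5, 9.96, 9.02 and 31.7 FPKM, had one of 0.907 from 0.656 to 1.25. For these last members primordium and young fruit body were not distinguishable at this depth.

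**Figure D4:**
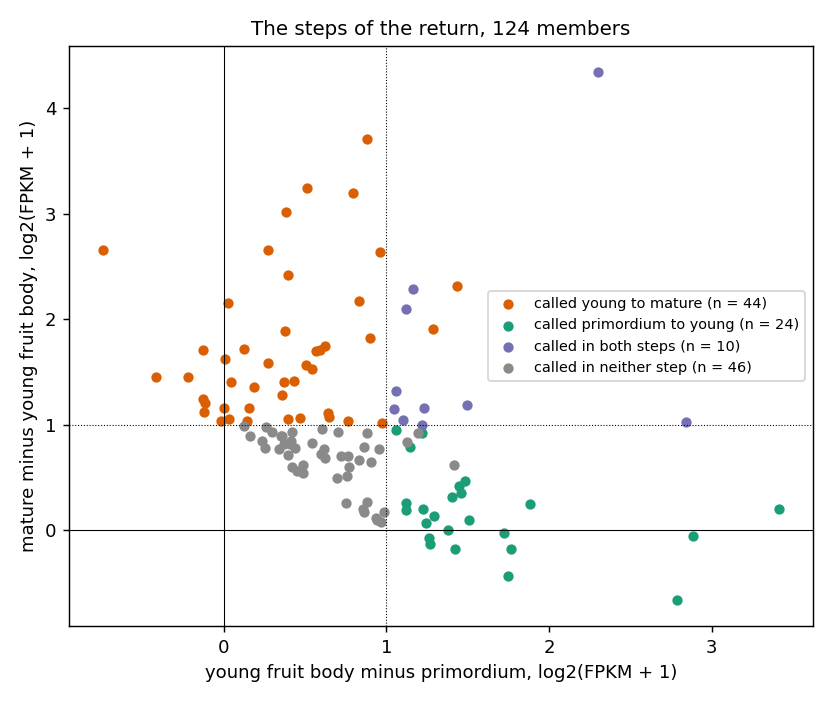
Each point is 1 of the 124 members, with young fruit body minus primordium on the x axis and mature minus young fruit body on the y axis, as differences of log2(FPKM + 1), coloured by the step that was called. Dotted lines mark a difference of 1. A few orange and grey points lie right of the vertical dotted line because their young value was under 5 FPKM. The point at the upper right is Unigene5436 and the lowest at the right is Unigene7217.

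Young fruit body was also set against mycelium, a comparison without the primordium library. It still uses the mycelium values on which the members were selected, so its shares are a description. Mycelium was called higher than young fruit body in 76 of the 124 members, 61.3%, against 24.7% of 8268 sequences. The reverse was called in 2 members, 1.61%, against 17.6%. These 2 were Unigene217 and Unigene218. With young fruit body in place of primordium, the same rule took 51 sequences, of which 38 were members and 13 were not. The 38 were 30.6% of the members. Both versions of the rule share the mycelium and the mature library.

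The mature level was below mycelium in 84 members and equalled or passed it in 40, with a median difference of -0.38 on the log2 scale. Over the 5354 sequences with at least 5 FPKM in both libraries the median was 0.15. Mycelium was called higher in 38 members, 30.6%, where the background was 24.3% of 8371 sequences, and mature fruit body in 13, 10.5%, where it was 18.1%. Members had at least 5 FPKM in both libraries and the background sequences in either, so the shares are not directly comparable. The 95% interval of the ratio lay below 1 in 72 members, above 1 in 31 and around 1 in 21.

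The 38 partial returns had medians of 55.3 FPKM in mycelium, 4.20 in primordium, 7.21 in the young and 11.5 in the mature fruit body. They held 0.891% of all fragments in mycelium and 0.209% in mature fruit body. The 13 members that overshot had medians of 23.4, 3.56, 7.90 and 54.4 FPKM and held 0.0648% of all fragments in mycelium and 0.322% in mature fruit body. Of these 13, 8 were called in the last step alone, 2 in the step to young fruit body alone and 3 in both. The remaining 73 members, within 2-fold of mycelium, had medians of 17.5, 4.11, 7.22 and 14.0 FPKM. Primordium medians were alike in the 3 groups. The groups were defined by the mature level against mycelium, so their separation on these levels is by construction.

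Among the members that overshot, CL2962.Contig1 (2127 nt) had 25.8 FPKM in mycelium, 11 in primordium, 16.1 in the young and 161 in the mature fruit body. Its mature level was 6.26-fold above mycelium (5.82 to 6.74), and 9.99-fold (9.14 to 10.9) above the young fruit body. CL683.Contig4 (973 nt), at 5.36, 0.410, 2.80 and 17.9 FPKM, was 3.34-fold above mycelium (2.60 to 4.33), with 6 fragments in primordium. Together with Unigene5436 these had the largest differences of mature fruit body to mycelium on the log2 scale. The dip of CL2962.Contig1 was 0.89 under upper-quartile scaling, below the minimum of the rule.

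The smallest returns relative to mycelium were those of CL3091.Contig2 (1464 nt), CL39.Contig3 (2044 nt) and Unigene8259. CL3091.Contig2 had 198, 4.58, 12.4 and 11.8 FPKM and came back to 0.0595 of mycelium (0.0524 to 0.0673). CL39.Contig3 had 103, 1.85, 5.21 and 6.42 FPKM and came back to 0.0626 (0.0541 to 0.0721). These were mainly mycelial sequences, in which the return was 2.56-fold (2.03 to 3.26) and 3.47-fold (2.57 to 4.73) from a low level.

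Of the 124 members 72 were contigs, assigned by their identifiers to 58 clusters, and 52 were single unigenes. Contigs made up 58.1% of the members and 50.7% of the 5230 other sequences with at least 5 FPKM in mycelium and mature fruit body. The median length was 1474 nt, from 207 to 5952 nt, against 1767 nt for those other sequences. The clusters held 1 member in 46 cases, 2 in 10 and 3 in 2. Contigs of 1 cluster may share sequence, the labels do not say how fragments were divided between them, and they are not independent members.

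In cluster CL6185 the 3 contigs present were all members and ran in parallel. CL6185.Contig1 (3967 nt) had 19.8, 4.94, 6.73 and 27.5 FPKM in order of stage. CL6185.Contig2 (4010 nt) had 10.1, 2.50, 3.98 and 13.8 FPKM, and CL6185.Contig3 (4083 nt) had 8.24, 2.42, 3.13 and 11.4 FPKM. The mature to mycelium ratios were 1.39 (1.29 to 1.5), 1.37 (1.23 to 1.52) and 1.39 (1.24 to 1.55), alike within counting error. Summed over the cluster the FPKM were 38.1, 9.87, 13.8 and 52.7.

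Cluster CL3091 had a higher mycelium level and a small early return, with contigs that differed in depth. CL3091.Contig1 (1498 nt) had 201, 10.8, 29.8 and 29.9 FPKM, and CL3091.Contig3 (2355 nt) had 443, 19.2, 47.0 and 49.5 FPKM. Mycelium exceeded primordium 18.6-fold (16.3 to 21.2) and 23.0-fold (21.3 to 24.9) in these, and 43.1-fold (35.4 to 53.0) in CL3091.Contig2, beyond their counting error. From primordium to young fruit body the ratios were close, at 2.75 (2.37 to 3.20) for CL3091.Contig1, 2.71 (2.15 to 3.44) for CL3091.Contig2 and 2.44 (2.24 to 2.68) for CL3091.Contig3, and from young to mature fruit body their intervals included 1. The small contig CL3091.Contig4 was no member, with 11.9 FPKM in mycelium and 0.973, 1.11 and 1.09 FPKM later.

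In cluster CL1555 both contigs were higher in mature fruit body than in mycelium. CL1555.Contig2 (1661 nt) had 24.5, 3.56, 7.90 and 54.4 FPKM and CL1555.Contig1 (1628 nt) had 10.4, 1.14, 4.23 and 18.6 FPKM, with mature to mycelium ratios of 2.22 (2.02 to 2.44) and 1.79 (1.54 to 2.09). Their last steps differed beyond counting error, at 6.89-fold (5.94 to 8.02) and 4.40-fold (3.56 to 5.48). In cluster CL5570 the contigs differed in depth. CL5570.Contig1 (623 nt) had 69.7, 1.17, 2.40 and 6.34 FPKM, and CL5570.Contig2 (688 nt) had 37.2, 3.28, 6.89 and 8.52 FPKM. Mycelium exceeded primordium 59.4-fold (33.0 to 120) in the former and 11.3-fold (7.98 to 16.6) in the latter, with intervals that do not overlap.

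The rule was then applied to the summed FPKM of each cluster, to see whether a return in a contig was also a return of its cluster. It held for the sums of 45 of the 58 clusters with a member, including all 12 clusters with 2 or 3 members, and failed for 13. The sums contain the member contigs that the rule selected, and in clusters such as CL1555 and CL6185 nothing else. The outcome was therefore partly fixed in advance. In 25 clusters another contig, outside the set, also reached 5 FPKM in some stage, and there the sum followed the rule in 17. These clusters held 34 such contigs. Of them, 21 were at least 1 lower in primordium than in mycelium on the log2 scale and 11 were at least 1 lower in primordium than in mature fruit body. By the call, which also needs at least 5 FPKM in the higher stage, the backgrounds were 24.6% of 8134 and 8.39% of 7119 sequences. None of the 34 was called higher in primordium than in mycelium or mature fruit body. Most of them were under 5 FPKM in primordium and could not be called higher there. The share of all sequences called in these directions is not given here, so no comparison is drawn.

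Several clusters, singled out after their values were seen, held a returning contig beside others that stayed down or hardly moved. In CL2189, the member CL2189.Contig1 (3291 nt) had 147, 7.47, 6.83 and 17.1 FPKM. CL2189.Contig2 (3841 nt) had 128, 48.7, 28.4 and 26.7 FPKM, with every stage below the preceding one, and CL2189.Contig3 (6830 nt) had 113, 90.9, 85.5 and 87.1 FPKM. The cluster sum was 388, 147, 121 and 131 FPKM, with no return above primordium. Other clusters held a contig outside the set that dipped little and rose at maturity. Examples were CL2596.Contig1 (1448 nt) with 27.5, 20.9, 30.4 and 80.4 FPKM and CL5844.Contig1 (1241 nt) with 16.0, 13.9, 13.4 and 65.9 FPKM.

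In CL5175, mentioned above for its deep dips, CL5175.Contig5 (1141 nt) had 15.2, 2.33, 2.16 and 1.17 FPKM, and CL5175.Contig4 (1879 nt) had 7.26, 0.177, 0.104 and 0.271 FPKM. The 2 returning contigs made up 59.1% of the cluster's FPKM in mycelium, 22.9% in primordium, 38.4% in the young and 92.1% in the mature fruit body. In CL5181, CL5181.Contig1 (1461 nt) returned with 13.8, 5.32, 6.76 and 13.8 FPKM beside CL5181.Contig2 (1192 nt), at 46.6, 43.9, 49.9 and 42.0 FPKM, and the cluster sum stayed between 49.2 and 60.5 FPKM. CL39.Contig3 made up 59.1% of the FPKM of its cluster in mycelium and 8.49% in primordium, the rest being mainly CL39.Contig2 (1872 nt) with 69.0, 18.6, 21.4 and 22.8 FPKM.

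**Figure D5:**
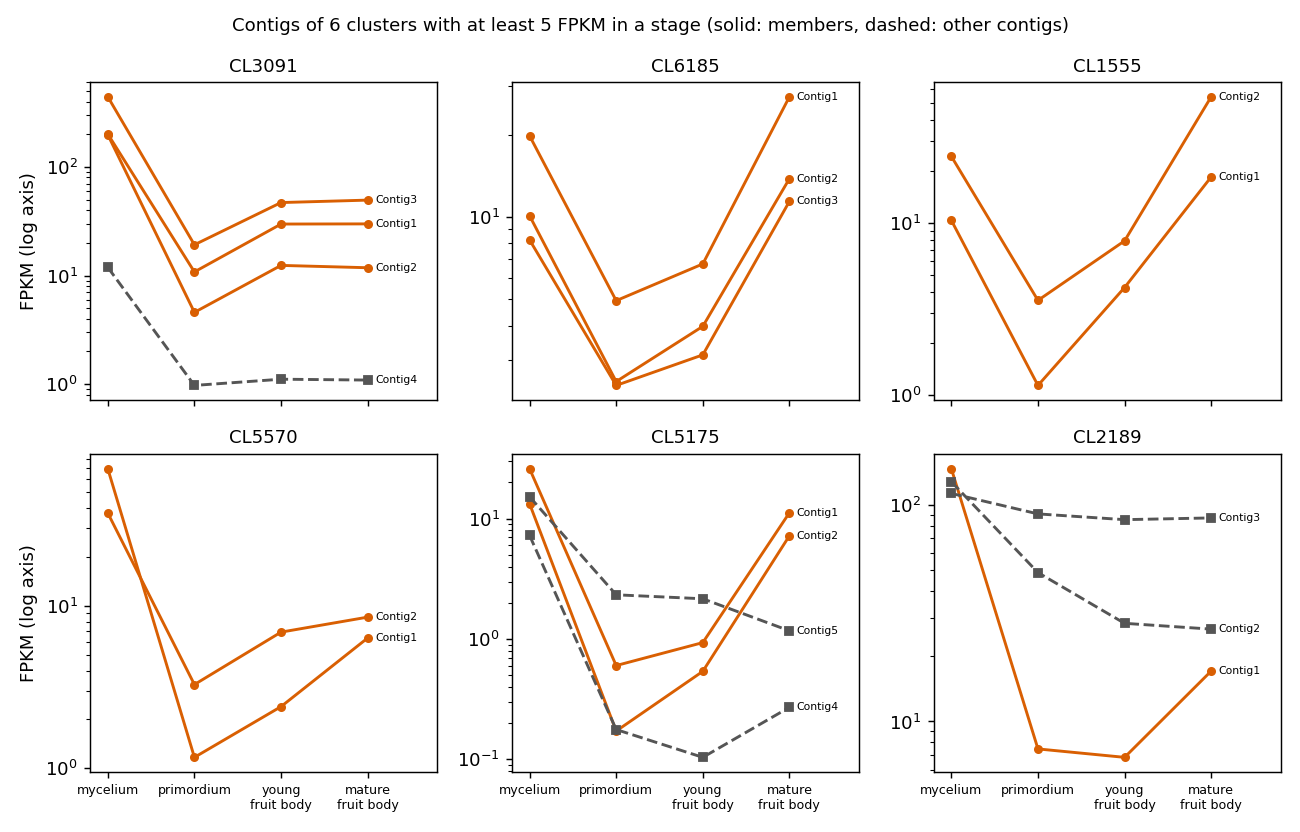
FPKM (log axis) by stage of the contigs of 6 clusters with at least 5 FPKM in some stage; solid orange lines are members and dashed grey lines are other contigs. In CL6185 and CL1555 every contig plotted is a member, whereas in CL5175 and CL2189 contigs outside the set stay down in mature fruit body, such as CL2189.Contig2 at 26.7 FPKM after 48.7 in primordium, or hardly move, such as CL2189.Contig3.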

How the data were processed

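The deposited values are FPKM, made by the authors as per the file headers, with 4 decimals; the aligner, reference and counting tool are not stated in the labels. Columns were matched to stages through the abbreviation that each sample's description gives. Library totals, lengths of at least 200 nt and whole fragment counts were recovered from the FPKM steps. All 124 members gave whole counts at lengths up to 5952 nt. With the other totals shifted against that of mycelium by up to 0.4%, 0 did so. The totals had been derived from the same values, and a common shift of all totals was not tried. Counts and lengths with a common factor are understated by it. Recovery and rule were run on simulated counts with counting error only and with dips planted in more abundant sequences. That run does not cover variation between libraries or members near the limits of the rule. Ratio intervals are exact conditional binomial. Folds given for a sequence are plain FPKM ratios; log2(FPKM + 1) understates differences at low FPKM. Python 3.11.15, numpy 2.4.6, pandas 2.3.3 and scipy 1.17.1 were used.

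The members and lists were chosen with earlier results of these data known. The named members were the 8 of highest FPKM in mycelium or mature fruit body, the 8 deepest dips, the 5 highest and 5 lowest in young fruit body against primordium, the 3 highest and 3 lowest in mature fruit body against mycelium, and the members of 4 clusters with 2 or 3 members (ties resolved by the highest FPKM), 35 in all, besides those nearest to the limits of the rule. Others named were chosen after their values were seen. The 10 alternatives covered pseudocount, minimum FPKM, threshold, scaling, the upper limit, cluster sums and counting intervals. No sequence letters are shown, since the files used here give none for these identifiers.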

Additional observations from a re-analysis of the deposited data

How the results depend on the processing

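The 7 summary values were recalculated under 10 alternatives, and 45 of the 70 values stayed within 1.5 times the reported count or near the reported median. In the order of members, called higher in young fruit body than primordium, called higher in mature than young fruit body, at least as high in mature fruit body as in mycelium, called lower there and called higher there, the reported counts were 124, 34, 54, 40, 38 and 13. They were 59, 14, 24, 23, 14 and 8 with a pseudocount of 5, and 45, 15, 21, 15, 14 and 7 with a minimum of 20 FPKM. With a log2 threshold of 2 they were 21, 4, 12, 13, 1 and 1, and with no minimum 280, 73, 97, 89, 55 and 21. These settings admit fewer or more sequences by construction. The median log2 difference of young fruit body to primordium, 0.74 as reported, was 0.59 with a pseudocount of 5 and 1.06 with a threshold of 2. Upper-quartile scaling, which moved mycelium by -0.28 on the log2 scale relative to primordium, gave 94 members, all among the 124; median-of-ratios scaling gave 107, all among the 124. The 70 differences of named members to primordium kept their sign in 280 recalculations with other pseudocounts and scalings, the smallest being 0.68. The rule required each difference to be at least 1, and another pseudocount cannot reverse a sign. The largest scaling shift was the -0.28 of mycelium, so this is no test. Of the 280, 98 moved beyond the counting interval. A difference below 1 was reached by 9 of the 35 named members with a pseudocount of 5, by 2 with upper-quartile scaling (CL2962.Contig1 and Unigene1291) and by 1 with median-of-ratios scaling (Unigene1291). No paired analysis was possible because there were no replicates at any stage.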

Other observations

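Among sequences outside the set, 4 met every part of the rule except the upper limit. Unigene6760 (538 nt) had 2010 FPKM in mycelium, 3.09 in primordium, 66.7 in the young and 105 in the mature fruit body, 34.0-fold above primordium (22.8 to 52.8). CL6286.Contig1 (1844 nt) had 1040, 2.02, 4.23 and 13 FPKM. In both, the return was clear by counting error yet small beside the mycelium level. The opposite profile, with primordium called higher than both mycelium and mature fruit body, was found for 155 sequences. The dip without the upper limit was found for 128, but it needs at least 5 FPKM in both mycelium and mature fruit body. The opposite profile needs it in primordium alone, so the counts are not directly comparable.

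A dip at the young fruit body without membership was found for 13 sequences, 4 of them contigs of cluster CL374. CL374.Contig6 (6253 nt) had 371 FPKM in mycelium, 1000 in primordium, 87.7 in the young and 396 in the mature fruit body. Its mature level was 4.51-fold above young (4.41 to 4.62), so that it was highest in primordium and lowest in the next stage. Unigene6360 (3562 nt) had the same order at 46.7, 262, 14.4 and 67.0 FPKM. Unigene7367 (1291 nt) instead resembled the members, at 236, 46.9, 34.5 and 72.0 FPKM, with a mature to primordium ratio of 1.53 (1.41 to 1.67), under the limit of the rule. These sequences were chosen after their values were seen.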
